A study of Rattus norvegicus with 12 samples.

Results

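Chemokines, interleukins and their receptors were examined in left ventricular tissue of rats after sham surgery or myocardial infarction (MI). The genes were chosen by symbol alone: Ccl, Ccr, Cxcl and Cxcr followed by a digit, Cx3c, Xcl1, Xcr1, Ackr, and Il followed by a digit. The rule found 132 rows among the 30560 genes of the count table, with 131 symbols because Il13ra1 stood on 2 identifiers. Of the 132, 99 had 10 or more reads over the 12 rats and are called measured here. Symbols alone do not make a family. Il4i1, for example, encodes an amino acid oxidase.

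Chemokines are small secreted proteins that bind receptors with a heptahelical fold and steer leukocytes along gradients. The atypical receptors (Ackr) bind the same ligands without the usual G protein signalling and remove or present them. Interleukins act through paired receptor chains that recruit Jak kinases and Stat factors or, for the interleukin-1 and interleukin-17 families, adaptor proteins that lead to NF-kB. In an infarcted heart, chemokines such as Ccl2 are known for drawing monocytes into the wound, interleukin-1 for driving early inflammation, and its antagonist Il1rn for limiting it.

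All animals were male Wistar rats operated on at 7 weeks of age. Sham rats had the chest opened without a ligature and received the carboxymethylcellulose vehicle, MI rats had a permanent ligature on the left anterior descending coronary artery and the same vehicle, and MI + UA rats had the ligature and Urolithin A (UA), a gut-derived metabolite that induces mitophagy, by oral gavage for 8 weeks. Each group held 4 rats with 1 library per rat, made from 20 µm sections of the formalin-fixed, paraffin-embedded left ventricle, so infarcted and surviving tissue were not separated, and 1 late time point was sampled. The study's sources give the dose and the first day of UA in different ways. Rat 66 carries an MI + UA label but stands among the vehicle-treated MI rats in a table of the study's heart measurements. It was kept in MI + UA. Counted in MI, it added a call of Il17rc in MI versus Sham and of Cxcl16 and Il6st in MI + UA versus Sham, and leaving it out added Il6st in MI versus Sham and Cxcl16 and Il6st in MI + UA versus Sham. Its effect on the calls and values given below stands beside them.

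Reads on genes ranged from 6228706 to 19031695 per rat, of which 5572 to 17299 fell on the listed chemokine and interleukin genes, and 87 to 103 of these genes had at least 1 read in a rat. Cell type markers moved between the groups. The summed level of 6 cardiomyocyte markers was 10367 to 12908 CPM (reads per library after scaling for depth) in Sham, 7008 to 7292 in MI and 7269 to 9310 in MI + UA, and 6 of 6 fell in MI. For 8 macrophage markers the sums were 86.7 to 101, 153 to 204 and 138 to 215 CPM, and 7 of 8 rose in MI. For 6 fibroblast markers they were 699 to 860, 1139 to 1844 and 1120 to 1930 CPM, and 4 of 6 rose. The smooth muscle sum was 92.7 to 123, 110 to 223 and 107 to 161 CPM (3 of 4 rose in MI), the lymphatic endothelial sum 80.8 to 95.6, 88.6 to 102 and 91.0 to 97.1 CPM (Lyve1 and Flt4 rose, Prox1 fell), and the endothelial sum 519 to 582, 408 to 499 and 396 to 472 CPM (Kdr fell, 1 of 5). None of the tested markers of T cells (5), B cells (5), NK cells (3), mast cells (6) or neutrophils (3 of 6, with Mpo at 0 reads and S100a8 at 4) passed edgeR's test in MI versus Sham. In the same test 2 of them had an unadjusted p-value under 0.05, where 23.9% of all genes did. Of these, Cd2 was lower in MI and Cd3d, with 25 reads over the 12 rats, was higher. These sections are bulk tissue, in which more or fewer cells of a type and more or less RNA per cell cannot be told apart. The part of the cell type markers in the changes below was not tested.

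Interleukin receptors were measured more completely than interleukins, and among chemokines the contrast was smaller. The limit of 10 reads takes no account of transcript length, and the contrast was not tested. Over all genes, 18182 of 30560 reached that limit. Of 37 interleukin receptor rows 33 were measured, of 18 chemokine receptors 16, and of the atypical receptors 3 of 3, whereas only 15 of 34 interleukins were. Of the CC chemokines 14 of 19 were measured, of the CXC, CX3C and XC chemokines 12 of 14, and of the binding proteins, antagonists and decoys 5 of 6. At 0 reads in all 12 rats stood Il3, Il9, Il17a, Il17f, Il20, Ccl28 and the receptor genes Ccr4, Il5ra and Il20ra. A count of 0 over the 121502354 reads on genes allows up to 3 reads, or 0.0247 CPM, for counting error only. Another 24 had 1 to 9 reads, among them the T cell cytokines Il2 (4 reads), Il4 (1), Il5 (1), Il13 (1) and Il22 (1), the interleukin-12 subunits Il12a (9) and Il12b (6), Il11 (4), Il25 (2), Il17b (7), Il19 (2), the interleukin-36 genes Il36a (4) and Il36g (2), Il1f10 (3), the chemokines Ccl17 (1), Ccl20 (7), Ccl25 (2), Ccl26 (3), Cxcl3 (3) and Cxcl6 (7), and the receptor genes Cxcr1 (3), Il13ra2 (6), Il22ra1 (5) and Il1rapl2 (4). Just inside the limit were Il1r2 and Il17c with 10 reads and Il27 with 11, and just outside it Il12a with 9.

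**Figure D1:**
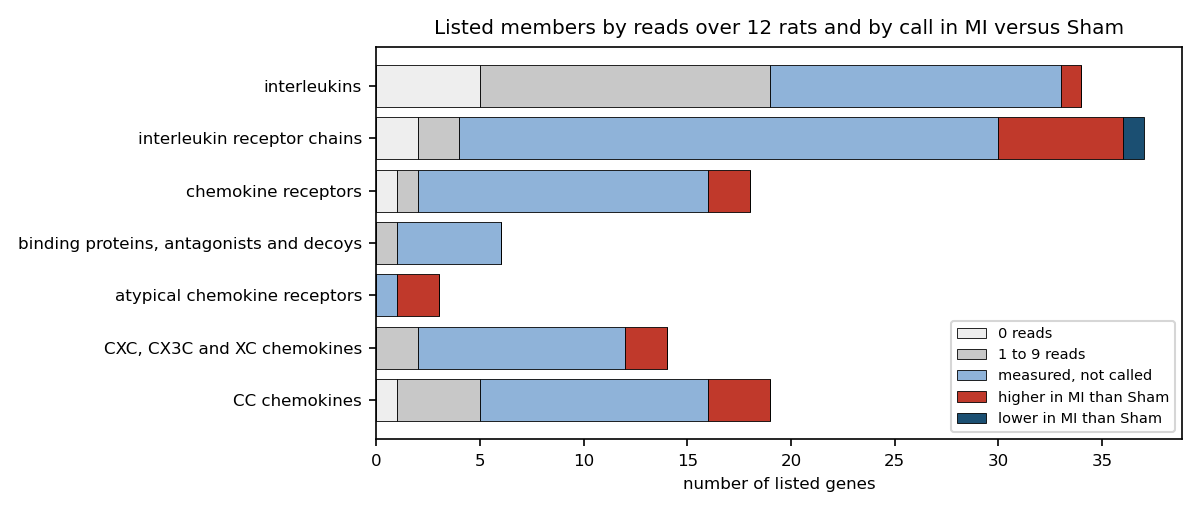
Number of listed genes in each role (131 of the 132 rows, Il4i1 left out), split by reads over the 12 rats and, for measured genes, by the edgeR call in MI versus Sham. Of 34 interleukins 19 had under 10 reads, against 4 of 37 interleukin receptor rows, and the 17 calls include 7 interleukin receptor genes.

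To ask which of these genes differed after infarction, MI was compared with Sham. A gene passed the test when its adjusted p-value in edgeR's quasi-likelihood test over all 18182 genes was under 0.05. Of the 99 measured members 17 passed, 16 higher and 1 lower in MI, or 17.2%, where 11.4% of all tested genes passed (5.82% higher and 5.53% lower). The number higher ran from 10 to 19 when 1 rat was left out. The median log2 fold change of the 99 was 0.29, against 0.03 for all genes tested, and 65 of 99 lay above 0, against 53.0% of all genes. The MI and Sham rats did not overlap at 23 members (21 higher, 2 lower), where this was so for 15.7% of all genes (8.12% higher, 7.56% lower). Among the genes that rose were 6 interleukin receptor genes (Il1r1, Il1rl1, Il7r, Il17ra, Il17rd and Il17re), the chemokine receptor Cx3cr1, the atypical receptors Ackr1 and Ackr2, the chemokines Ccl2, Ccl19, Ccl21, Cxcl13 and Cxcl16, and the interleukin Il16. The single gene that fell was Il2rb.

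**Figure D2:**
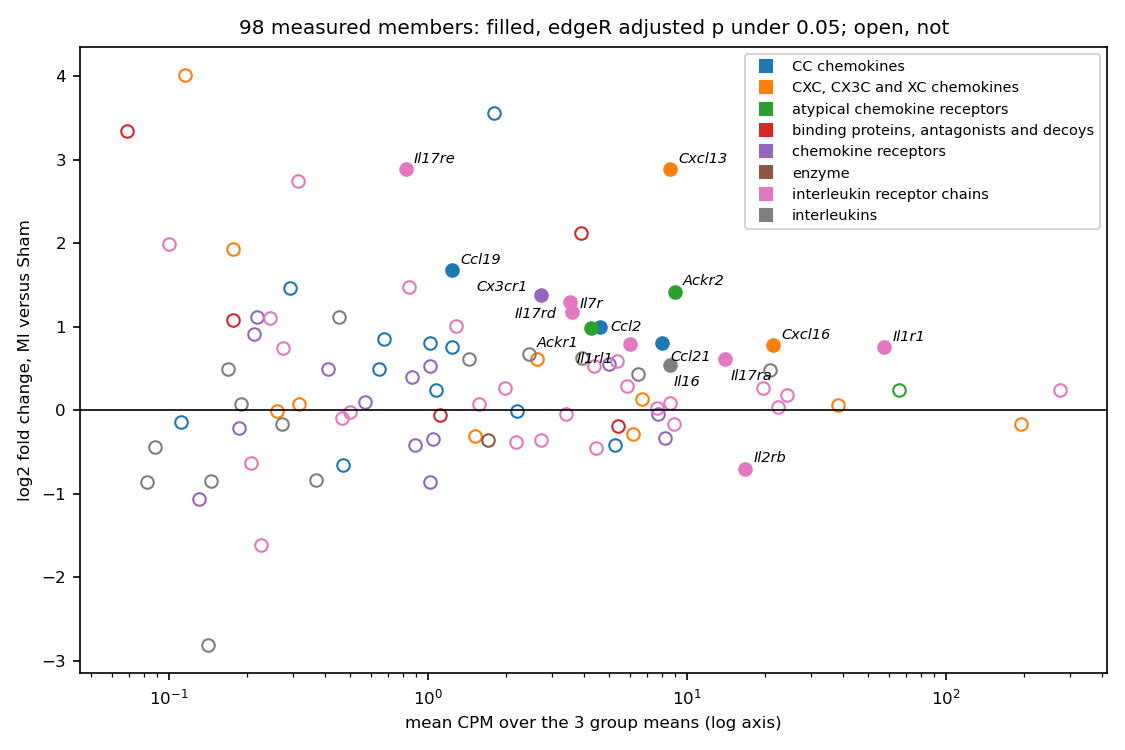
Log2 fold change of MI versus Sham for 98 of the 99 measured members against their mean level in CPM on a log axis, coloured by role, with members that passed edgeR's test filled and named. Of the 16 filled points 15 lie above 0, and the widest open scatter is among genes at or below about 1 CPM.

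Among interleukin receptors, Il1r1 (ENSRNOG00000014504), the signalling receptor of interleukin-1, had the smallest p-value of all members. It stood at 45.2, 43.2, 39.2 and 35.4 CPM in the Sham rats, 59.0, 73.7, 77.0 and 66.9 in the MI rats and 65.7, 71.0, 63.2 and 52.6 in the MI + UA rats. All 8 infarcted hearts lay above all 4 Sham hearts. The log2 fold change in MI was 0.76 (SE 0.11, adjusted p = 1.12e-04), or 1.69-fold. Il1rl1 (ENSRNOG00000014835), the receptor of interleukin-33, was at 5.52, 3.61, 3.20 and 4.65 CPM in Sham, 5.48, 8.78, 6.95 and 8.88 in MI and 6.74, 6.68, 6.50 and 5.51 in MI + UA, with 1 MI rat and 1 MI + UA rat within the Sham range. In MI it rose by a log2 fold change of 0.79 (SE 0.20, adjusted p = 0.0136), a call that ended without Sham rat 32 (adjusted p = 0.0521) or without MI rat 89 (adjusted p = 0.0585). The 2 genes are near each other: on the RefSeq map of the rat genome the order is Il1r1, Il1rl2, Il1rl1, Il18r1, Il18rap. Their neighbours Il1rl2, an interleukin-36 receptor, and Il18r1, an interleukin-18 receptor, had log2 fold changes of 2.75 (SE 0.99, adjusted p = 0.0823, with 2 reads in all Sham rats together and 3 to 8 in each MI rat) and 1.01 (SE 0.39, adjusted p = 0.109). Il18rap stood at 0.27 (adjusted p = 0.711).

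Among the interleukin-17 receptors, grouped here by name with their values known, Il17ra, Il17rd and Il17re rose and Il17rb and Il17rc did not pass, where 5.82% of all tested genes were called higher. Il17ra (ENSRNOG00000011153), the chain shared by most receptors of the family, was at 10.7, 11.0, 10.3 and 9.06 CPM in Sham, 15.8, 16.0, 16.3 and 14.6 in MI and 13, 13.5, 21.1 and 16.0 in MI + UA. No infarcted heart lay within the Sham range, and the log2 fold change in MI was 0.61 (SE 0.15, adjusted p = 0.00785). Il17rd (ENSRNOG00000021966), also known as an inhibitor of fibroblast growth factor signalling, was at 1.76, 2.31, 3.03 and 1.43 CPM in Sham, 5.63, 3.14, 5.19 and 4.64 in MI and 4.46, 3.72, 4.20 and 3.77 in MI + UA. It rose by 1.18 (SE 0.25, adjusted p = 0.00332), again without overlap. Arhgef3, which overlaps Il17rd on the RefSeq map, had 1584 reads and a log2 fold change of -0.18 (adjusted p = 0.416).

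Il17re (ENSRNOG00000009204), the chain that binds interleukin-17C, rested on few reads. The Sham rats had 1, 3, 1 and 0 reads, the MI rats 10, 11, 9 and 26, and the MI + UA rats 11, 5, 10 and 17, or 0.182 ± 0.182, 1.38 ± 0.654 and 0.895 ± 0.341 CPM (SD, n = 4). The log2 fold change in MI was 2.89 (SE 0.65, 95% interval 1.53 to 4.25, adjusted p = 0.00531), and the groups did not overlap. Without Sham rat 17, which had 3 of the 5 Sham reads, it was 3.74. In MI + UA versus Sham it was 2.26 with that rat and 3.11 without it. Its neighbour on the map, Il17rc, the partner of Il17ra for interleukin-17A and F, had a log2 fold change of 0.59 (SE 0.20, adjusted p = 0.0583) with separate groups, and Il17rb, the interleukin-25 receptor, one of 0.07 (95% interval -0.71 to 0.85). Of the ligands, Il17a and Il17f were at 0 reads, Il25 at 2, Il17b at 7 and Il17c at 10 over the 12 rats, which is too few to compare the groups.

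Il7r (ENSRNOG00000065741), the interleukin-7 receptor of lymphocytes, which also forms the receptor of thymic stromal lymphopoietin, was at 2.13, 1.15, 1.35 and 1.91 CPM in Sham, 3.29, 4.39, 3.01 and 5.78 in MI and 3.60, 6.04, 6.77 and 2.70 in MI + UA. Every infarcted heart lay above every Sham heart. Il7r rose by 1.30 on the log2 scale (SE 0.34, adjusted p = 0.0143), and the call ended without Sham rat 17 (adjusted p = 0.0512) or MI rat 89 (adjusted p = 0.0668). Il2rb (ENSRNOG00000048636), the beta chain of the interleukin-2 and interleukin-15 receptors, went the other way. It was at 18.8, 26.1, 22.2 and 22.4 CPM in Sham, 12.6, 14.4, 12.7 and 15.3 in MI and 15.4, 13.9, 10.7 and 16.5 in MI + UA, all infarcted hearts below all Sham hearts. Its log2 fold change was -0.70 (SE 0.14, adjusted p = 0.00167), or 0.615-fold.

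The chains that work with Il2rb did not pass. Il2rg, the common gamma chain, had a log2 fold change of 0.04 (95% interval -0.18 to 0.26), Il15ra one of -0.45 (-0.91 to 0.01) and Il2ra one of -0.38 (-0.95 to 0.19). Summed markers of T cells were at 2.45 to 6.44 CPM in Sham and 3.14 to 5.92 in MI, and those of NK cells at 6.56 to 9.09 and 4.70 to 10.8 CPM, ranges that overlapped. The T cell sum joins genes that moved in opposite directions. Cd2 had a log2 fold change of -1.12 (edgeR's unadjusted p = 0.0255, adjusted p = 0.138) and Cd3d one of 2.72 (unadjusted p = 0.0352, adjusted p = 0.168). Il6st, the signal chain shared by interleukin-6 and interleukin-11, was at 245 ± 6.05 CPM (SD, n = 4) in Sham and 289 ± 25.4 in MI without overlap, with a log2 fold change of 0.24 (SE 0.08, adjusted p = 0.0706). The other receptor genes not already named had log2 fold changes from -1.61 for Il9r to 1.99 for Il23r, none past the test: Il3ra, Il4r, Il6r, Il10ra, Il10rb, Il11ra1, Il12rb1, Il12rb2, both rows of Il13ra1, Il1rap, Il20rb, Il21r, Il27ra and Il31ra.

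Of the chemokine receptors, Cx3cr1 (ENSRNOG00000018509), the fractalkine receptor of monocytes and macrophages, was at 1.76, 0.866, 1.01 and 1.19 CPM in Sham, 4.24, 1.88, 3.32 and 3.01 in MI and 2.86, 6.81, 3.38 and 2.53 in MI + UA, with no overlap between infarcted and Sham hearts. It rose by 1.38 (SE 0.37, adjusted p = 0.0179), and the call ended without Sham rats 17, 32 or 38 or MI rat 36 (adjusted p = 0.0593, 0.0545, 0.0535 and 0.0615). It rose together with the macrophage markers given above, whose part was not tested. The chemokine receptors that did not pass, among them Ccr2, Ccr6, Ccr7, Cxcr2, Cxcr3, Cxcr4 and Cxcr6, had log2 fold changes from -1.06 for Ccr8 to 1.12 for Ccr3.

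Of the 3 atypical receptors 2 passed in MI, where 11.4% of all tested genes did, and the call of Ackr1 ended in 8 of 20 alternative settings. Ackr2 (ENSRNOG00000019472), a scavenger of inflammatory CC chemokines known from lymphatic endothelium, was at 4.52, 2.74, 6.90 and 4.89 CPM in Sham, 10.8, 11.1, 16.0 and 12.7 in MI and 9.14, 7.06, 11.8 and 9.57 in MI + UA. All infarcted hearts were above all Sham hearts, and the log2 fold change in MI was 1.42 (SE 0.21, adjusted p = 1.65e-04), or 2.68-fold. Of the 4 lymphatic endothelial markers, Lyve1 had a log2 fold change of 1.21, Flt4 of 0.46, Pdpn of 0.14 (adjusted p = 0.767) and Prox1 of -0.45 in the same comparison. Ackr1 (ENSRNOG00000069330), which binds many chemokines on venules and red cells, was at 2.63, 2.45, 2.69 and 2.98 CPM in Sham, 3.66, 2.98, 8.93 and 5.62 in MI and 3.66, 7.06, 3.25 and 5.12 in MI + UA. MI rat 57 was level with the highest Sham rat. Ackr1 had a log2 fold change of 0.98 (SE 0.32, adjusted p = 0.0479), near the threshold and 0.63 without MI rat 61, and the call ended without any 1 of the 4 Sham rats (adjusted p from 0.0871 to 0.110), without MI rats 61 (0.223) or 89 (0.0998) or without MI + UA rat 66 (0.0514), and with scaling factors computed without the mitochondrially encoded genes (0.0511). Ackr3, which scavenges Cxcl12, was at 59.6 ± 3.24 CPM (SD, n = 4) in Sham and 70.7 ± 7.97 in MI (log2 fold change 0.24, SE 0.12, adjusted p = 0.249).

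**Figure D3:**
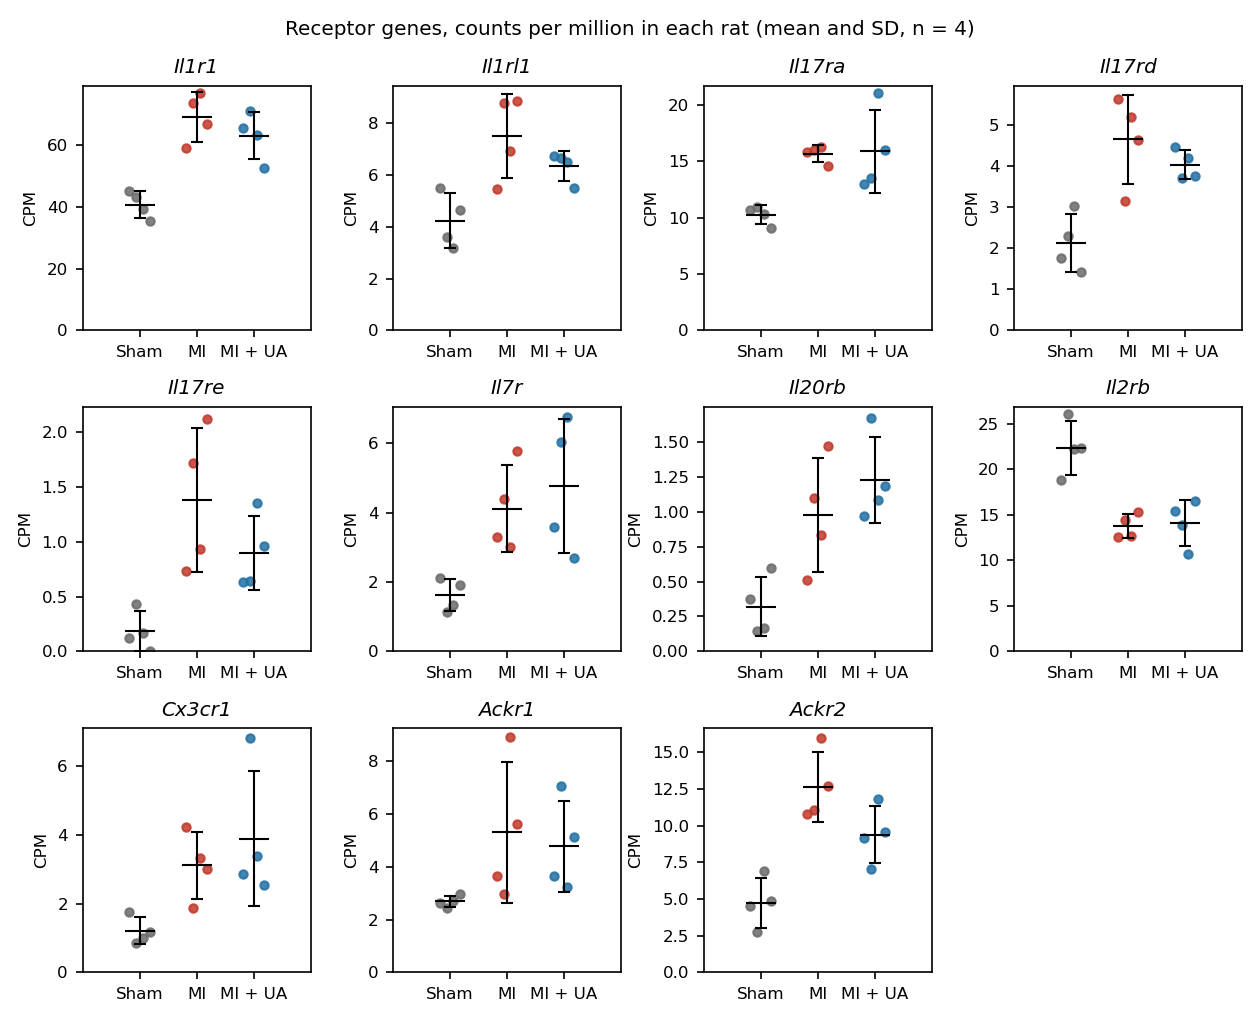
Level in CPM of 11 receptor genes in each rat of Sham, MI and MI + UA; points are rats, the horizontal line is the mean and the bar the SD (n = 4). Il1r1, Il17ra, Il17rd, Il17re, Il7r, Cx3cr1 and Ackr2 were higher and Il2rb lower in all infarcted hearts than in all Sham hearts, while Il1rl1 and Ackr1 overlapped between MI and Sham.

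Of the chemokines, Cxcl13 (ENSRNOG00000024899), the attractant of B cells that acts on Cxcr5, had with Il17re the largest log2 fold change among members that passed. It was at 1.76, 2.02, 1.52 and 0.715 CPM in Sham, 8.63, 4.39, 6.64 and 22.9 in MI and 5.26, 13.4, 32.2 and 3.88 in MI + UA. Every infarcted heart lay above every Sham heart, and the spread within MI and MI + UA was wide. The log2 fold change in MI was 2.89 (SE 0.69, adjusted p = 0.00798). With robust shrinkage of the dispersion the adjusted p was 0.108, and without MI rat 89 the log2 fold change was 2.18 (adjusted p = 0.0409). Summed B cell markers were at 1.18 to 2.63 CPM in Sham and 0.896 to 2.71 in MI.

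The pair of ligands of Ccr7, which guide dendritic cells into lymphatics, both rose. Ccl21 (ENSRNOG00000034290) was at 5.27, 4.04, 5.72 and 6.44 CPM in Sham, 8.48, 7.84, 9.24 and 11.9 in MI and 7.60, 8.99, 12.5 and 7.93 in MI + UA, with no overlap between infarcted and Sham hearts (log2 fold change in MI 0.81, SE 0.20, adjusted p = 0.00911). Ccl19 (ENSRNOG00000015668) rested on fewer reads, at 1.00, 0.722, 0 and 0.477 CPM in Sham, 1.97, 1.10, 2.49 and 1.79 in MI and 1.03, 1.28, 2.17 and 0.844 in MI + UA. MI lay above Sham in all rats, whereas 1 MI + UA rat was within the Sham range. For Ccl19 the log2 fold change in MI was 1.68 (SE 0.50, adjusted p = 0.0316). That call ended without Sham rats 17, 32 or 38 (adjusted p = 0.0524, 0.0730 and 0.0907), without MI rats 36, 61 or 89 (0.0596, 0.0924 and 0.0578), and with rat 66 counted in MI (0.0666).

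Cxcl16 (ENSRNOG00000026647), a membrane-bound chemokine and scavenger receptor that acts on Cxcr6, was at 10.8, 18.3, 14.6 and 18.4 CPM in Sham, 26.2, 20.9, 29.4 and 29.5 in MI and 21.2, 25.8, 26.5 and 15.9 in MI + UA. MI and Sham did not overlap, and the log2 fold change was 0.78 (SE 0.17, adjusted p = 0.00461). Zmynd15, which overlaps it on the map, had 65 reads in all (log2 fold change 0.59, adjusted p = 0.685). Ccl2 (ENSRNOG00000007159), the main monocyte attractant, was at 2.63, 2.6, 2.86 and 1.91 CPM in Sham, 4.61, 1.57, 7.06 and 6.03 in MI and 4.86, 6.42, 8.93 and 5.91 in MI + UA. MI rat 57 was below all Sham rats and the other 3 MI rats above them. Ccl2 had a log2 fold change of 1.00 (SE 0.32, adjusted p = 0.0488), the weakest of the calls, which ended in 13 of 20 alternative settings. Among these were the fits without any 1 of the Sham rats 12, 17, 32 and 38 (adjusted p = 0.0881, 0.0897, 0.0803 and 0.150), the MI rats 36, 61 and 89 (0.0640, 0.168 and 0.137) or the MI + UA rats 58 and 66 (0.0523 for each).

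Of the other CC chemokines, Ccl1, Ccl3, Ccl4, Ccl5, Ccl7, Ccl9, Ccl11, Ccl12, Ccl22, Ccl24 and Ccl27 did not pass. Their log2 fold changes ran from -0.65 for Ccl12 to 3.56 for Ccl9, and the median of the 14 CC chemokines was 0.78, against 0.03 for all genes. Ccl27 overlaps Il11ra1 on the map. Of the CXC, CX3C and XC group, Cx3cl1, Cxcl1, Cxcl2, Cxcl9, Cxcl10, Cxcl11, Cxcl12, Cxcl14, Cxcl17 and Xcl1 did not pass, and the median of the 12 was 0.10. Cxcl2, a neutrophil attractant, had 0 reads in all 4 Sham rats and 0, 5, 0 and 2 in the MI rats. Cxcl12, which holds progenitor cells and lymphocytes through Cxcr4, was at 219 ± 32 CPM (SD, n = 4) in Sham and 194 ± 26.3 in MI (log2 fold change -0.17, 95% interval -0.42 to 0.08).

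Il16 (ENSRNOG00000011680), made as a precursor and known as a ligand of CD4, was the single called interleukin of 15 measured, where 11.4% of all tested genes were called. It was at 7.78, 7.51, 6.23 and 6.44 CPM in Sham, 9.43, 11.6, 9.55 and 10.3 in MI and 8.51, 9.63, 7.58 and 8.16 in MI + UA. MI and Sham did not overlap (log2 fold change 0.54, SE 0.14, adjusted p = 0.0178), and the call ended without Sham rats 32 (adjusted p = 0.0567) or 38 (0.0619). Of the others, Il18 and Il34, a ligand of the macrophage receptor Csf1r, were higher in every MI rat than in every Sham rat, at log2 fold changes of 0.68 (adjusted p = 0.163) and 0.63 (adjusted p = 0.0727). Il1a, Il1b, Il6, Il7, Il10, Il15, Il17c, Il21, Il23a, Il24, Il27 and Il33 did not pass either, with values from -2.81 for Il10 (13 reads) to 1.12 for Il1b (63 reads). The acute cytokine Il6 had 21 reads over the 12 rats and a log2 fold change of 0.07 (95% interval -1.79 to 1.93).

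**Figure D4:**
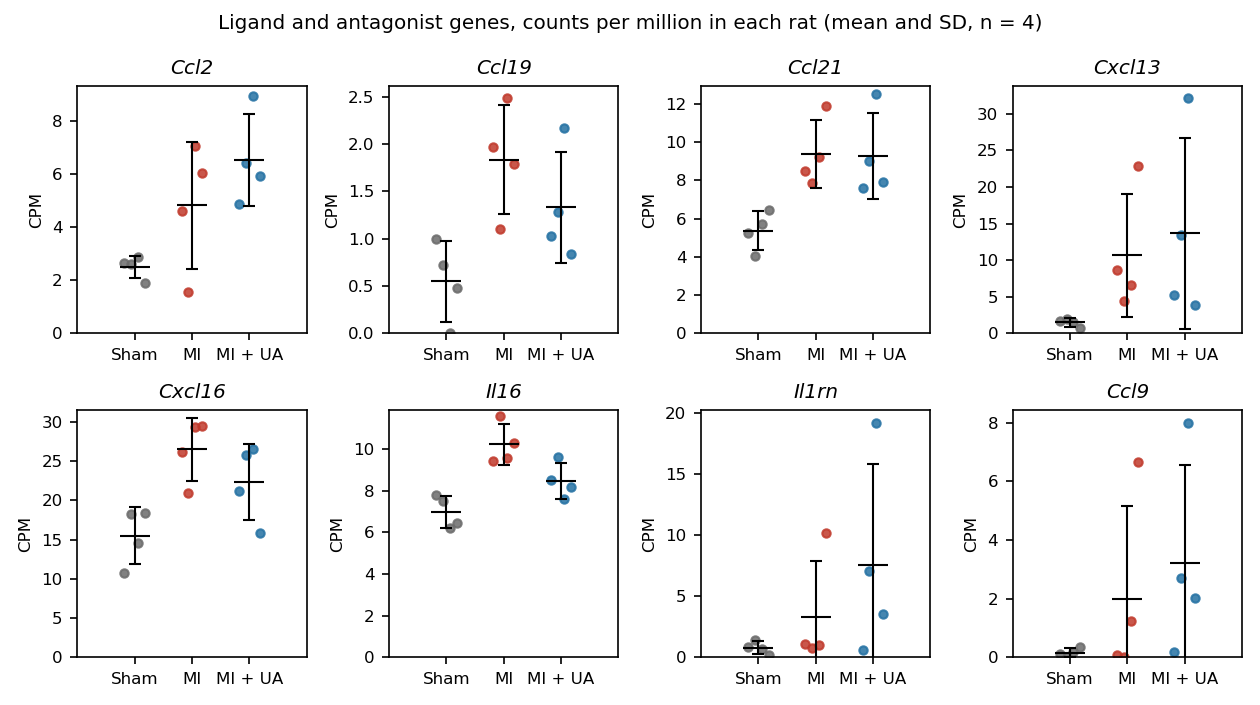
Level in CPM of 8 ligand and antagonist genes in each rat of Sham, MI and MI + UA; points are rats, the horizontal line is the mean and the bar the SD (n = 4, cut at 0). Ccl21 and Cxcl13 were higher in all infarcted hearts than in all Sham hearts, and Il1rn, Ccl9 and Cxcl13 were spread widely within both infarcted groups.

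The pairs of a ligand and its signalling receptor set out here are a selection of the members. In none of them did both pass in MI in the test over all 12 rats and 18182 genes. Outside the members, Csf1 and its receptor Csf1r did both pass, at log2 fold changes of 0.53 (adjusted p = 0.00326) and 0.73 (adjusted p = 0.00224). Cxcl13 passed, but its receptor Cxcr5 had 20 reads over the 12 rats and a log2 fold change of -0.21 (95% interval -1.92 to 1.50). Ccl19 and Ccl21 passed and their receptor Ccr7 (64 reads) stood at 0.10 (-1.19 to 1.39). For Cxcl16 the receptor Cxcr6 stood at -0.04 (-0.39 to 0.31). Ccr2, the receptor of Ccl2, stood at 0.55 (-0.08 to 1.18). In the other direction, Cx3cr1 passed and its ligand Cx3cl1 stood at 0.06 (-0.22 to 0.34). Il1rl1 passed and Il33 stood at 0.48 (0.11 to 0.85, adjusted p = 0.0948), though both passed with no filter beyond 1 count, without MI rat 36 or without MI rat 57. Il1r1 passed, and Il1b and Il1a, with 63 and 19 reads, stood at 1.12 (-0.40 to 2.63) and 0.49 (-1.24 to 2.22). The difference between a ligand and its receptor was not itself tested.

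Among the binding proteins, antagonists and decoys, 0 of 5 passed edgeR's adjusted test in MI versus Sham, where 11.4% of all genes did, and 1, Il1rn, had an unadjusted p-value under 0.05, where 23.9% of all genes did. Il1rn (ENSRNOG00000005871), the interleukin-1 receptor antagonist, was at 0.878, 1.44, 0.673 and 0.238 CPM in Sham, 1.10, 0.784, 1.04 and 10.2 in MI and 0.571, 7.06, 19.2 and 3.54 in MI + UA. MI rat 89 and MI + UA rats 58, 64 and 66 were above all Sham rats, and the other 4 infarcted hearts were within the Sham range. The log2 fold change was 2.12 in MI (SE 1.02, adjusted p = 0.209) and 3.12 in MI + UA versus Sham (SE 0.96, adjusted p = 0.0447), or 2.1 without MI + UA rat 64 (adjusted p = 0.195). Il36b, which overlaps Il1rn on the map, is not analysed here. Ccl9, a macrophage chemokine named here after its values were seen, had its highest levels in the same 4 rats: 6.68 CPM in MI rat 89, and 2.70, 7.98 and 2.03 in MI + UA rats 58, 64 and 66, against 1.25 or less in every other rat. The 3 highest Cxcl13 values, 22.9, 13.4 and 32.2 CPM, were those of rats 89, 58 and 64. Il1r2, the interleukin-1 decoy receptor, had 0 reads in Sham and 10 in all, and Il18bp, Il22ra2 and Il36rn had log2 fold changes of -0.19, -0.06 and 1.08 in MI. For the enzyme gene Il4i1 it was -0.36 (adjusted p = 0.546).

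Promoter sequence of the members that passed was read from RefSeq (build GRCr8), as the 250 bases before each gene's start. An entry was present for 100 of the 131 symbols and for 13 of the 19 that passed in any comparison. The motifs searched were TTCNNNGAA for Stat factors, TGANTCA for AP-1 and GAAA followed after 2 free bases by GAAA for interferon response, each on both strands, the NF-kB consensus on both strands, and TATAAA on the sense strand. No hit overlapped another among the 13. A promoter held the NF-kB consensus in 3.52% of all 27457 promoters and in 16% of the 75 of measured members, the AP-1 motif in 6.36% and 14.7%, TATAAA in 8.38% and 18.7%, the interferon motif in 3.29% and 6.67%, and the Stat motif in 7.52% and 8%. Of the 13 that passed, each of NF-kB, AP-1, interferon and TATAAA was found in 1 and the Stat motif in 0. These 4 promoters are shown because they hold those hits, in capitals: the NF-kB consensus in Il1r1 (135 to 126 bases before the start), TATAAA in Cxcl13 (33 to 28), the interferon motif in Ccl19 (51 to 42) and AP-1 in Il16 (67 to 61). In GRCr8 they lie at chr9:50034133-50034382 (plus strand), chr14:13917921-13918170, chr5:61761165-61761414 and chr1:147116743-147116992 (each minus strand).
Il1r1: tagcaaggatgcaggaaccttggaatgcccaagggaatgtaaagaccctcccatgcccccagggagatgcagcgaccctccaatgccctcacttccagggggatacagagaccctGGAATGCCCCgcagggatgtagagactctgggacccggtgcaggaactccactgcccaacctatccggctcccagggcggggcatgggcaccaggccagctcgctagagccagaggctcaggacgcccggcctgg
Cxcl13: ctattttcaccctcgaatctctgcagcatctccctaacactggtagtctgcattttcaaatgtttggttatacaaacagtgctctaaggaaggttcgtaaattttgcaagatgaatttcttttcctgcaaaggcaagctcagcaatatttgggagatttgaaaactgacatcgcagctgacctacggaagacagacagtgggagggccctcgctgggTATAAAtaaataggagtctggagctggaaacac
Ccl19: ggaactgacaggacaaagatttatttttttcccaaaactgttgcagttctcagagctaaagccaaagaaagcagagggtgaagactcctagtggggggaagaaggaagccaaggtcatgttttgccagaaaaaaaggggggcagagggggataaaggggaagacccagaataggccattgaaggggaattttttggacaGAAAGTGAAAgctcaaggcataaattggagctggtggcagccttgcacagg
Il16: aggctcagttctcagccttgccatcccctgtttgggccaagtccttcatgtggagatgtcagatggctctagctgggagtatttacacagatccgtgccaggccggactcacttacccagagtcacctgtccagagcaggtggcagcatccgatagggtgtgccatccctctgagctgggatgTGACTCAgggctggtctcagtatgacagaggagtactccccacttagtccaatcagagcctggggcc
A match of letters is a description and shows no binding.

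Other genes of these pathways were taken from lists. Of 27 tested genes that act downstream of interleukin receptors 4 rose in MI and 0 fell, where 5.82% of all tested genes were called higher and 5.53% lower, and their median log2 fold change was 0.11 (0.03 for all genes). They were Irak3, an inhibitor of interleukin-1 signalling (0.65, adjusted p = 0.00460), the NF-kB inhibitor Nfkbia (0.82, adjusted p = 0.0391), Nfkbiz, a nuclear protein of the same IkB group that acts largely as a co-activator of NF-kB targets (1.10, adjusted p = 0.00382), and Jak2 (0.56, adjusted p = 0.00822). Of 19 genes downstream of chemokine receptors 4 rose (Pik3cg 0.45, Arrb2 0.77, Rgs16 0.65 and Elmo1 0.46) and 0 fell, against the same 5.82% and 5.53% of all genes, with a median of 0.20. Of 27 tested chemokine and cytokine genes with other names, 9 rose and 1 fell, against the same shares, with a median of 0.34. Among those that rose were Csf2rb, the beta chain for interleukin-3, interleukin-5 and Csf2 (1.27, adjusted p = 6.11e-04), the chemerin receptor Cmklr1 (0.81), Ifngr1 (0.50), Csf1 (0.53) and its receptor Csf1r (0.73), Tgfb1 (0.41), Tnfrsf1a (0.56) and the oncostatin M receptor Osmr (0.64). Ctf1, cardiotrophin-1, which signals through Il6st, fell by 0.62 on the log2 scale. In MI + UA versus MI 0 genes of the 3 lists passed edgeR's adjusted test, and 2, 2 and 0 of them, in the order given, had an unadjusted p under 0.05, where 3.79% of all genes did. Nfkbia was at 36.6 ± 8.14 CPM (SD, n = 4) in Sham, 65.7 ± 28.6 in MI and 34.8 ± 10.1 in MI + UA, with MI and MI + UA overlapping through MI rat 36 at 29.8 (log2 fold change between these 2 groups -0.92, SE 0.25, unadjusted p = 0.00147, adjusted p = 1.00). Arrb2, a beta-arrestin that takes chemokine receptors off the membrane, was at 6.52 ± 1.45 CPM (SD, n = 4) in Sham, 11.0 ± 0.957 in MI and 8.31 ± 0.449 in MI + UA (-0.42, SE 0.15, unadjusted p = 0.00945, adjusted p = 1.00), and all MI + UA rats were below all MI rats. The others were Jak2 (-0.26, unadjusted p = 0.0485) and Grk3, a receptor kinase (0.79, unadjusted p = 0.0388).

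MI + UA was compared with MI to ask whether UA changed these genes after infarction. In edgeR's test 0 of 99 members passed, where 0% of all 18182 genes passed. With no adjustment, 3 members had p under 0.05, 0 higher and 3 lower in MI + UA, or 3.03%, against 3.79% of all genes (1.86% higher, 1.92% lower), and DESeq2 likewise gave 0 members past the adjusted threshold and 3 at the unadjusted one. Median log2 fold changes were 0.00 for the 99 and 0.00 for all genes. The rats did not overlap at 3 members (Ccr3 higher, Ccr6 and Il12rb1 lower, with 25 to 32 reads each), against 2.34% of all genes (1.18% higher, 1.16% lower).

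The members with the smallest p-values were given whatever their call. Il12rb1 (ENSRNOG00000019216), a chain of the interleukin-12 and interleukin-23 receptors, had 4, 2, 8 and 5 reads in MI and 3, 1, 1 and 0 in MI + UA, and 3, 0, 1 and 4 in Sham (log2 fold change -2.06, SE 0.82, unadjusted p = 0.0212, adjusted p = 1.00, and -1.13 with rat 66 counted in MI). Cxcl10 (ENSRNOG00000022256), an interferon-induced ligand of Cxcr3, was at 1.88, 2.89, 2.02 and 2.50 CPM in Sham, 5.26, 3.14, 3.53 and 2.20 in MI and 3.26, 1.54, 2.57 and 0.731 in MI + UA, with MI and MI + UA overlapping (-0.82, SE 0.35, unadjusted p = 0.0306, adjusted p = 1.00). That value was -0.48 without rat 66, -0.19 with rat 66 counted in MI, -0.53 without MI rat 36 and -1.28 without MI + UA rat 29. Ackr2, whose values are given above, stood at -0.43 (SE 0.19, 95% interval -0.83 to -0.04, unadjusted p = 0.0315, adjusted p = 1.00), and 3 MI + UA rats were below all MI rats. Ccl12 (ENSRNOG00000029768), a monocyte chemokine next to Ccl11, had 6, 4, 2 and 1 reads in Sham, 8, 1, 3 and 0 in MI and 14, 3, 6 and 14 in MI + UA (1.32, SE 0.66, unadjusted p = 0.0585). It was 0.73 with rat 66 counted in MI, 2.20 without MI rat 36 and 0.87 without MI rat 89. For Il16 the value was -0.27 (SE 0.14, unadjusted p = 0.0638). None of these holds after adjustment over all genes.

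How large a change could have been missed is shown by the intervals. For 47 of the 99 members the 95% interval of MI + UA versus MI lay within 1 log2 unit on either side of 0. For 16 of the 17 members that passed in MI versus Sham the interval included 0. The exception was Ackr2. Among the narrower intervals were -0.35 to 0.09 for Il1r1 and -0.27 to 0.29 for Il17ra, and among the wider -0.83 to 1.24 for Cxcl13 and -1.59 to 0.33 for Il17re.

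**Figure D5:**
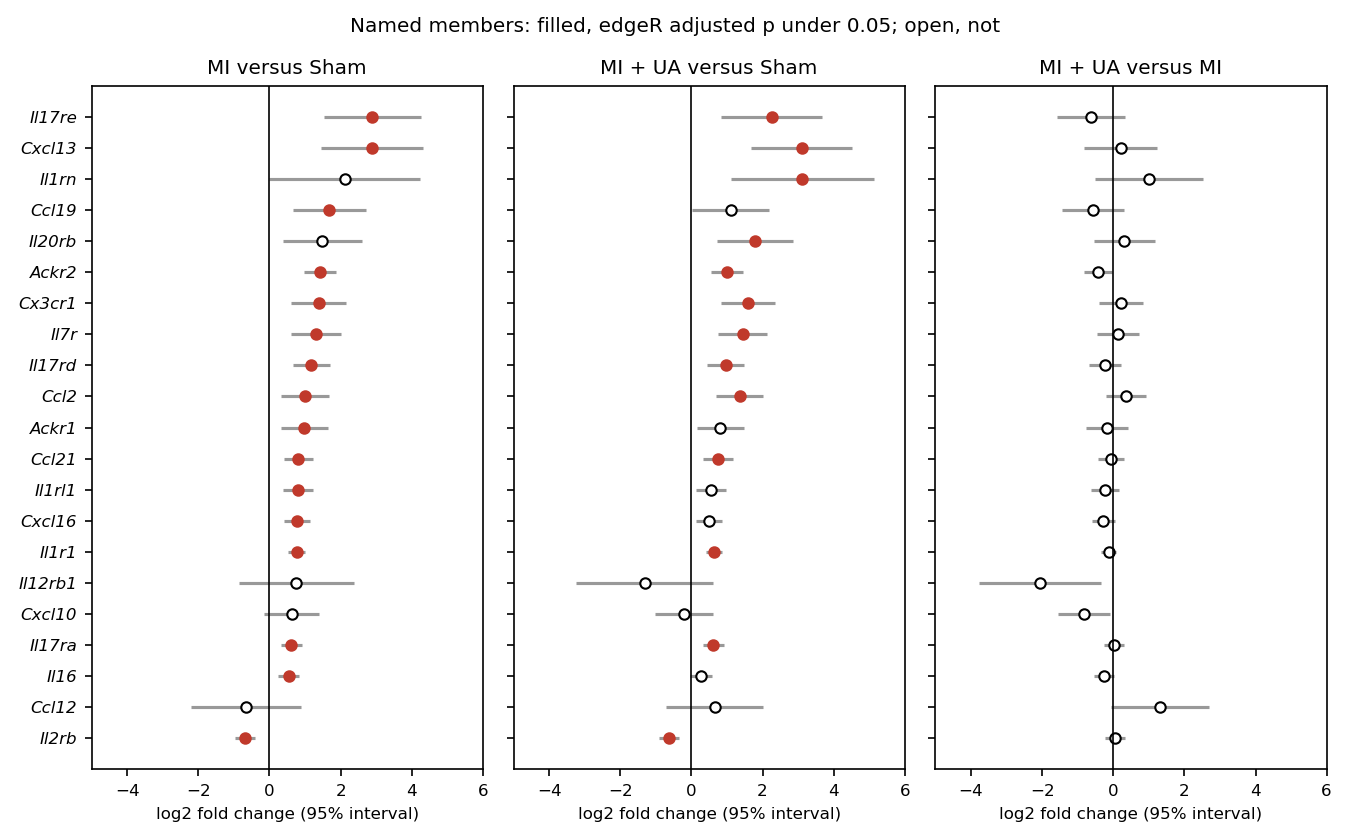
Log2 fold change with its 95% interval for the 21 members given rat by rat, in MI versus Sham, MI + UA versus Sham and MI + UA versus MI; filled points passed edgeR's adjusted test. Of these, 16, 13 and 0 passed in the 3 comparisons, and in the last the intervals of Il12rb1, Cxcl10 and Ackr2 alone exclude 0.

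MI + UA versus Sham asked which members differed from uninjured hearts under treatment. Of 99 members 14 passed, 13 higher and 1 lower, or 14.1%, where 9.44% of all genes passed (5.16% higher, 4.27% lower). Ccl5 (log2 fold change -0.80, adjusted p = 0.0690) and Cxcl12 (-0.36, adjusted p = 0.0651) did not pass here. Both passed as lower with DESeq2 and with no filter beyond 1 count. With no adjustment 27 members had p under 0.05, where 21.8% of all genes did. The median log2 fold change was 0.29, against 0.02 for all genes, with 62 of 99 above 0, against 52.3%. The rats did not overlap at 21 members (18 higher, 3 lower), where 14.3% of all genes did not (7.83% higher, 6.46% lower). Since this comparison shares its Sham rats with MI versus Sham, the values are set side by side only. Among those past the test here and also in MI, each with its log2 fold change here and then in MI, were Il1r1 (0.63 and 0.76), Il17ra (0.62 and 0.61), Il17rd (0.96 and 1.18), Il17re (2.26 and 2.89), Il7r (1.45 and 1.30), Il2rb (-0.64 and -0.70), Cx3cr1 (1.60 and 1.38), Ackr2 (0.99 and 1.42), Ccl2 (1.36 and 1.00), Ccl21 (0.75 and 0.81) and Cxcl13 (3.10 and 2.89). Without MI + UA rat 64 the value of Cxcl13 here was 2.23. Ccl2 passed here with an adjusted p of 0.00801 and no overlap between MI + UA and Sham.

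Cxcl16, Il1rl1, Il16, Ccl19 and Ackr1 passed in MI and not in MI + UA, where they stood at 0.50, 0.56, 0.27, 1.11 and 0.81 with adjusted p-values of 0.0758, 0.0981, 0.286, 0.214 and 0.127. Cxcl16 also passed in MI + UA versus Sham without rat 66, with rat 66 counted in MI and with no filter beyond 1 count. The MI + UA versus MI values of these 5 genes, which test that difference, were -0.28 (SE 0.16), -0.24 (SE 0.19), -0.27 (SE 0.14), -0.58 (SE 0.42) and -0.18 (SE 0.28), and none passed. Il1rn, given above, and Il20rb passed in MI + UA and not in MI. Il20rb (ENSRNOG00000023214), a chain shared by receptors of interleukin-19, interleukin-20 and interleukin-24, had 3, 1, 1 and 5 reads in Sham, 7, 7, 8 and 18 in MI and 17, 13, 8 and 21 in MI + UA. All MI + UA rats were above all Sham rats in CPM, with a log2 fold change of 1.79 (SE 0.51, adjusted p = 0.0302), against 1.48 in MI (SE 0.53, adjusted p = 0.0802). Its partner Il20ra was at 0 reads, and of its ligands Il20 was at 0, Il19 at 2 and Il24 at 39 reads. Calls that ended when 1 rat was left out were those of Il1rn (adjusted p from 0.0735 to 0.195, without any 1 Sham rat or MI + UA rats 58 or 64), Il17re (0.0501 to 0.128, without Sham rats 12, 32 or 38 or MI + UA rats 58, 64 or 66), Il20rb (0.0582 to 0.0894, without Sham rats 12, 17 or 32 or MI + UA rat 58), Il17rd (0.0517 to 0.0847, without Sham rats 12 or 38 or MI + UA rat 29) and Ccl21 (0.0692 and 0.0664, without Sham rat 17 or MI + UA rat 64).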

How the data were processed

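RNA was sequenced from 12 rat hearts (Sham, MI and MI + UA, 4 each) after depletion of ribosomal RNA with a strand-specific, paired-end protocol. The authors mapped the reads with STAR 2.6.1c to mRatBN7.2 and deposited raw counts per Ensembl gene from htseq-count, with MultiQC 1.8 named in the processing notes. The strand setting of the counting is not given in the sources used here, so reads of overlapping genes may not be separable. The 5 summary rows of the counter, which held 51.7% to 57.1% of counted reads, were left out. The authors' own exclusion of 1 more MI + UA library was taken as given, and that library is not analysed here. The 13 mitochondrially encoded genes took 50.2% to 58.6% of reads on genes.

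Genes with 10 or more counts over the 12 rats (18182) were scaled by TMM and tested with edgeR 4.0.16 (R 4.3.3) in 1 quasi-likelihood fit of the 3 groups, two-sided, with Benjamini-Hochberg adjustment over all genes and a threshold of 0.05. The standard error is the log2 fold change over the root of F, and intervals are at 95%. CPM are counts scaled to the TMM library size. The pairs of rats within a group differed by more than sampling noise (chi-square per degree of freedom 1.95 to 17.0). The p-values set a difference between groups against the spread between rats, which edgeR estimates for each gene partly from the other genes. Depth limits precision at genes with few reads, since 1 read is worth 0.0563 to 0.168 CPM. CPM are not per length, so levels were not compared between genes. The script was tested on simulated data. Members given rat by rat were those past the threshold in any comparison and the 5 with the smallest p-value in MI + UA versus MI. Counts and medians cover all members and listed genes, some of which are not reported here. The members and lists were chosen with earlier results of these data known. Alternatives were DESeq2 1.42.0, other filters, other scalings (DESeq2 size factors, TMM without the mitochondrially encoded genes), robust dispersion, fits of 2 groups, rat 66 counted in MI, and leaving out each rat. Figures were drawn with matplotlib 3.10.9.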

Additional observations from a re-analysis of the deposited data

Results flagged for a closer look

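In 93 groups of 4 rats, 3 had 1 rat whose gap to the nearest of the others, divided by the range of the group, exceeded Dixon's 95% critical value, and about 1 in 20 groups does so by chance. Single genes were examined as log2 CPM with a prior count of 1, and sums as CPM. For Ccl12, MI + UA rat 58 was the lowest, with a ratio of 0.957 on the log2 scale (0.385 CPM, against 0.788 to 0.812 in the other 3). For Il1rn, MI rat 89 was the highest, with a ratio of 0.877 on the log2 scale (10.2 CPM, against 0.784 to 1.10). The summed level of the 3 atypical chemokine receptors was highest in Sham rat 38, with a ratio of 0.930 (71.3 CPM, against 65.3 to 65.7).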

How the results depend on the processing

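The number of members called higher in MI versus Sham was 16 and ranged from 10 (without Sham rat 32) to 19 when 1 rat was left out, and in MI + UA versus Sham it was 13 and ranged from 9 to 14. The number called lower in MI + UA versus Sham was 1, and was 3 with DESeq2, 2 with only the 2 groups in the fit, 3 with no filter beyond 1 count, and 1 to 2 when 1 rat was left out; the cause was not tested. Of 31 calls of single members 17 held in every alternative run, among them those of Il1r1, Il17ra, Il17rd, Ackr2, Ccl21, Cxcl16 and Il2rb in MI versus Sham, and 0 members were called in MI + UA versus MI under any. None of the 31 called log2 fold changes, nor of the 5 named in MI + UA versus MI, reversed under the alternatives run. No paired analysis was possible because each rat belongs to a single group and its number names that animal alone. The call of Cxcl13 ended with robust dispersion in both comparisons (adjusted p = 0.108 and 0.0935), as did that of Il1rn in MI + UA versus Sham (adjusted p = 0.234), which also ended with edgeR's own expression filter (0.0519). That filter removed Il17re and Il20rb from the test. Counting rat 66 in MI ended the calls of Ccl19 in MI (adjusted p = 0.0666) and Il17re in MI + UA versus Sham (0.0632), and the latter also ended with only the 2 groups in the fit (0.0501). Depth limits the genes with few reads: at 1 read per rat a level is not distinguishable from 0.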
